A study of Mus musculus with 4 samples.

Results

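LH-AL-2 is the second of 3 ascending limb clusters that the study defined among nuclei of the mouse kidney cortex. It is cluster 11 of 23, named here by the order of the cluster names in the study, and it is held as 4 columns of the 92 in the expression table, a column for each mouse. Single nucleus RNA sequencing had been made on 4 male mice of mixed strain, with 1 mouse per condition. Control mice carried the TRE-hKLF6 transgene alone, which is silent without a transactivator. hKLF6 OE mice carried CAG-rtTA and TRE-hKLF6, so that human KLF6, a zinc finger transcription factor, was induced globally, since the CAG promoter is active in most cell types and not only in the tubule. All 4 mice were fed doxycycline at 200 mg/kg of diet. In each genotype, 1 mouse received 1 injection of aristolochic acid I (AAI) at 2 mg/kg and its kidneys were collected after 24 hours, and the other received no AAI. The methods of the study give DMSO, the solvent of AAI, as the control injection. They do not say whether the mice without AAI in this experiment received it. AAI is a plant toxin that is taken up by proximal tubule cells and forms DNA adducts. The ages of the mice are not given in the sources used here. The table has no row for the human transgene, so its induction could not be checked.

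The thick ascending limb reabsorbs sodium chloride without water. NKCC2, encoded by *Slc12a1*, carries sodium, potassium and chloride in from the lumen, ROMK (*Kcnj1*) returns potassium to the lumen, and chloride channels with Na,K-ATPase complete the passage to the blood side. The lumen-positive voltage that results drives calcium and magnesium between the cells, through a path made by claudin-16 and claudin-19, whereas claudin-10b makes a path for sodium, and these claudins are known to lie in separate cells of the segment. The segment also makes uromodulin and the precursor of epidermal growth factor.

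Values are mean counts per 10000 counts of a nucleus, averaged over the nuclei of LH-AL-2 in 1 mouse, and sets of 4 values are given in the order control, control with AAI, hKLF6 OE, and hKLF6 OE with AAI. A difference is that of log2(value + 1), which understates the change of low genes, and a gene counts as higher or lower where this is 0.5 or more in every mouse or pair of mice compared. Genes under 0.5 on both sides of a comparison were left out. There were 19609 gene rows, of which 35.0% to 36.9% were at 0 in a column of LH-AL-2, against 25.9% to 31.3% in LH-AL-1 and 60.5% to 63.4% in LH-AL-3. Neither the number of nuclei nor the counts behind a column are in the table, so the counting error of a value is unknown. With 1 mouse per condition there is no spread between mice of a condition, and no test was made. An exact permutation test of the 2 mice with AAI against the 2 without could not give a two-sided p under 0.33. The values that follow describe these mice, and since nuclei of a cluster were averaged, a change in the mix of nuclei and a change within nuclei cannot be told apart.

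The defining markers of the ascending limb were present. *Slc12a1*, on chromosome 2 at 125152505 to 125230002 of GRCm38, stood at 155, 166, 157 and 147 in LH-AL-2, against 18.02 to 20.4 in the mean of the other 22 clusters. It was the second highest of 23 clusters in all 4 mice, below LH-AL-1 at 217, 210, 201 and 195. *Slc12a1* varied little between the mice of LH-AL-2, with a coefficient of variation of 5.00%. *Enox1*, an ecto-NOX oxidase on chromosome 14 at 77156763 to 77721760, stood at 22.4, 19.3, 8.87 and 16.8. In LH-AL-1 it was 6.49, 4.89, 1.23 and 6.53, and in LH-AL-3 18.1, 25.7, 12.96 and 16.6, so that LH-AL-2 and LH-AL-3 shared the high levels and took turns at the top. The uninjured hKLF6 OE mouse was the lowest of the 4 in all 3 ascending limb clusters.

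Against the mean of the other 22 clusters, 191 of 3972 genes were higher in LH-AL-2 in every mouse (4.81%) and 349 were lower (8.79%). The clusters were made from these same values, so these counts describe the cluster and are no test of it. Of 11 markers of the thick ascending limb, 8 were among the higher genes and none among the lower. *Egf*, the precursor of epidermal growth factor, had the largest difference, with 164, 132, 104 and 127 in LH-AL-2 and 9.72 to 13.5 in the mean of the others, a difference of at least 3.04. *Umod*, which encodes uromodulin, was 36.6, 38.6, 36.3 and 38.5, at least 1.86 above the others, and varied by 3.17% (coefficient of variation over the 4 mice), the least among the genes of the marker, salt transport and salt regulation lists that passed the filter. *Erbb4*, a receptor of the EGF family, was 88.0, 78.3, 67.8 and 67.1, and in LH-AL-1 it was as high or higher, at 72.9 to 96.3. The adaptor *Ank3* (89.6 to 96.9), kininogen *Kng2* (12.4 to 16.8), *Arhgap6* (13.4 to 18.6) and the nuclear receptor *Esrrb* (5.58 to 6.57) completed the 12 genes furthest above the other clusters, with *Slc12a1*, *Enox1*, *Tmem207*, *Casr* and *Nrxn3*. All 12 exceeded the mean of the other clusters in each mouse, as the plot of their levels shows.

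**Figure D1:**
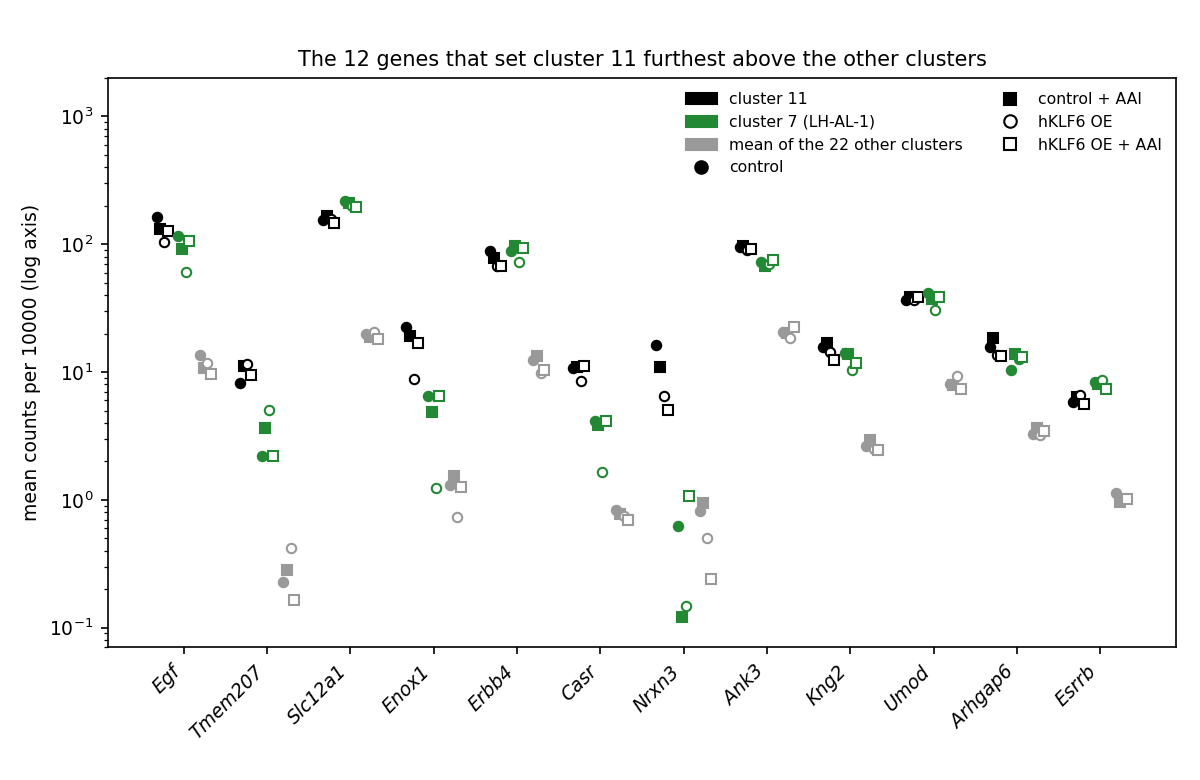
Levels of the 12 genes furthest above the mean of the other clusters, as mean counts per 10000 on a log axis, in cluster 11 (black), cluster 7 (green) and the mean of the 22 other clusters (grey). Each point is 1 mouse, with circles for mice without AAI, squares for mice with AAI, filled points for control and open points for hKLF6 OE; all black points lie above the grey points of the same gene, and the green points lie near or below the black ones except for *Slc12a1*, *Erbb4* and *Esrrb*.

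In each of the 4 mice, 26 genes were highest in LH-AL-2 of all 23 clusters, and 3 of them by a difference of at least 0.5 from the next cluster: *Tmem207* (1.06), *Cldn16* (0.54) and *Casr* (0.54). *Tmem207*, a transmembrane protein gene, stood at 8.26, 11.25, 11.6 and 9.56, against 2.20 to 5.04 in LH-AL-1 and at most 0.422 in the mean of the other clusters. *Cldn16*, for claudin-16, stood at 1.27, 2.25, 0.830 and 2.76, against 0.0435 to 0.487 in LH-AL-1. *Casr*, the calcium-sensing receptor that curbs calcium and magnesium reabsorption in this segment, stood at 10.7, 10.9, 8.48 and 11.21, against 1.66 to 4.15 in LH-AL-1. All 3 genes lie on chromosome 16, and *Cldn16* (26463135 to 26482765) and *Tmem207* (26503656 to 26526769) are separated by 20.9 kb, whereas *Casr* lies at 36493696 to 36562141. Others of the 26 were the claudin-16 partner *Cldn19* (0.703, 0.901, 0.516 and 1.01), the basolateral potassium channel *Kcnj10* (1.54, 1.30, 1.81 and 1.51), the sodium-hydrogen exchanger *Slc9a3* (4.27 to 5.22), *Pkhd1* (43.4 to 55.8), which encodes fibrocystin, and *Susd4* (1.57 to 2.29). The smallest lead over the next cluster was 0.460 for *Susd4* and 0.123 for *Pkhd1*. It was only 0.0423 for *Kcnj10*, 0.0175 for *Cldn19* and 0.00104 for *Slc9a3*, close to a tie in at least 1 mouse.

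Genes of salt transport were shared with the rest of the segment. Of 11 salt transport genes that passed the filter, 7 were higher in LH-AL-2 than in the other clusters, among them *Slc12a1*, *Kcnj1*, *Kcnj10*, *Atp1b1*, the Na,K-ATPase regulator *Fxyd2*, and *Slc9a3*. *Kcnj1* stood at 4.26, 4.08, 4.81 and 4.26, and varied by 7.25% over the mice. *Bsnd*, which encodes barttin, varied more, by 44.8%, and was highest in the uninjured control mouse, at 1.18. Of the transcription factors of the segment, 4 of 13 were higher in LH-AL-2 than in the other clusters (*Esrrb*, *Ppargc1a*, *Sim2* and *Tfap2b*), and *Hnf4a*, a factor of the proximal tubule, was lower.

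Of the remaining cell types, the markers of macrophages and leukocytes summed to 0.109 to 0.580 over the 4 mice, those of podocytes to 0.374 to 0.611, of endothelium to 0.400 to 1.09, of mesangium and stroma to 0.0242 to 0.138, of intercalated cells to 0.408 to 1.19 and of principal cells to 0.376 to 0.728. The sums were larger for thin limb (1.29 to 2.36), distal convoluted tubule (1.48 to 4.16) and connecting tubule (2.48 to 5.49). Proximal tubule markers stood far above these, at 102, 66.1, 128 and 56.9, and all 10 were above 0 in all 4 mice. *Kap* alone held most of that sum in each mouse. Macula densa cells, which also carry *Slc12a1*, were not visible in LH-AL-2: *Nos1* was 0.0727, 0.0118, 0 and 0, and *Pappa2* and *Ptgs2* were listed at 0 in all 4 mice. So were *Rpl35*, *Rps27* and *Etfb*, genes that every cell uses, so that a listed 0 does not show that a gene is absent. In LH-AL-3, *Nos1* was 11.7, 12.9, 5.96 and 13.1.

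By the share of genes that differed in every mouse, LH-AL-1 was the nearest cluster to LH-AL-2, with 1.68% of 3506 genes. LH-AL-3 followed with 6.57%, the distal convoluted tubule with 6.85% and the connecting tubule with 10.0%, and the proximal tubule cluster PT-S3-2 was the furthest, with 25.7%. Against LH-AL-1 of the same mouse, 31 genes were higher in LH-AL-2 (0.884%) and 28 were lower (0.799%). Of the 11 markers of the thick ascending limb, 4 were higher (*Casr*, *Cldn16*, *Enox1* and *Tmem52b*) and 2 were lower (*Cldn10* and *Ptger3*), whereas only 1 of 12 salt transport genes, *Kcnj10*, stood apart. The genes higher and lower than in LH-AL-1 spanned a median of 133 and 278 kb in the genome, against 61.4 kb for all genes tested.

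*Tmem52b*, on chromosome 6 at 129512555 to 129519227, was the gene furthest above LH-AL-1, with 7.16, 6.01, 5.38 and 5.47 against 0.915, 0.667, 0.722 and 0.665, a difference of at least 1.89. The 4 mice of the 2 clusters did not overlap, and the difference was close to the same in each mouse. *Tmem52b* also stood at 5.96 to 6.65 in the distal convoluted tubule and 6.44 to 8.44 in the connecting tubule, so it was not particular to LH-AL-2. In LH-AL-3 it was 0.380 to 1.37. *Nrxn3*, which encodes the adhesion protein neurexin 3 and lies on chromosome 12 at 88722876 to 90334935, was 16.1, 11.05, 6.53 and 5.05 against 0.629, 0.122, 0.147 and 1.06, and here the difference ranged from 1.55 to 3.42. *Itpr2*, a calcium release channel of the endoplasmic reticulum, was 4.39 to 6.80 in LH-AL-2 and 0.892 to 1.45 in LH-AL-1. *Cadps2*, a factor of regulated vesicle release, was 3.02 to 3.93 against 0.432 to 0.634. *Wnk1*, the kinase that acts on the salt cotransporters through SPAK, was 28.5, 15.7, 9.92 and 17.02 against 6.70, 5.03, 3.34 and 5.80, a difference of at least 1.33. *Wnk1* was still lower in LH-AL-2 than in the distal convoluted tubule, and against the mean of the other 22 clusters it did not stand out. In LH-AL-3 it was 17.3, 20.8, 6.38 and 20.6, above LH-AL-2 in both mice with AAI. *Kctd8* (3.16 to 3.82), *Sh3rf1* (5.97 to 8.46) and *Efemp1* (1.79 to 3.06), an extracellular matrix protein, also exceeded LH-AL-1 by at least 1.06 in every mouse. *Cldn16* exceeded it by 0.75 to 1.34.

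Among the lower genes, *Cacnb2*, a subunit of voltage-gated calcium channels, stood at 0.270, 0.873, 0.415 and 0.553 in LH-AL-2 and at 4.81 to 5.17 in LH-AL-1, a difference of at least 1.68 in each mouse. *Ptger3*, the EP3 receptor of prostaglandin E2, on chromosome 3 at 157566892 to 157645888, was 2.13, 4.60, 4.03 and 3.61 against 14.1, 15.4, 12.9 and 14.6. All values of *Ptger3* in LH-AL-2 lay below all values in LH-AL-1, and the control mouse without AAI had the lowest. *Cldn10* was 0.813, 0.479, 1.61 and 0.460 against 2.42 to 3.35, so that *Cldn10* and *Cldn16* differed between the clusters in opposite directions. Also lower were *Ranbp3l* (0.895 to 2.01 against 4.60 to 16.5), the cofactor *Zfpm2*, the myo-inositol transporter *Slc2a13*, the transcription factor *Sox5*, *Nrp1*, *Ralyl* and *Thsd4*, each by at least 0.74. Of the genes that regulate salt transport, the kinase SPAK, encoded by *Stk39*, was 5.57 to 6.36 in LH-AL-2 and 9.56 to 9.95 in LH-AL-1, and the parathyroid hormone receptor *Pth1r* was 2.39 to 4.00 against 1.30 to 2.16. The nuclear receptor *Esrrg* was 26.3 to 28.2 against 40.3 to 45.9.

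**Figure D2:**
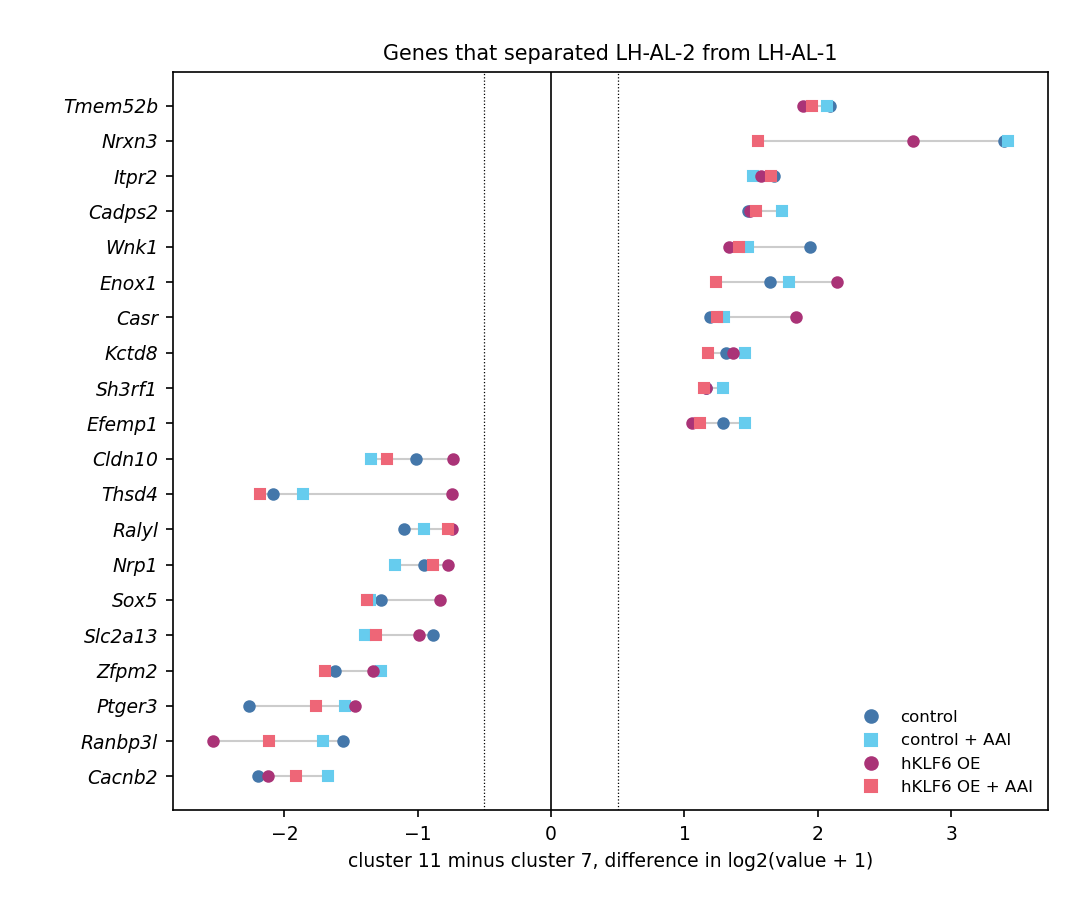
Difference in log2(value + 1) between cluster 11 and cluster 7 of the same mouse, for the 10 genes highest and the 10 genes lowest by the smallest difference of the 4 mice. Each point is 1 mouse, the grey line spans the 4 mice and the dotted lines mark 0.5; the points of *Tmem52b* and *Itpr2* lie close together, whereas those of *Nrxn3* and *Thsd4* spread over more than 1.

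AAI was compared with no AAI within each genotype, to see how early nephrotoxic injury was reflected in this segment. In control mice, 106 of 4404 genes were higher with AAI (2.41%) and 140 were lower (3.18%). In hKLF6 OE mice, 158 of 4407 were higher (3.59%) and 258 were lower (5.85%). The pairs hold different mice. In both pairs, 22 of 3944 genes were higher (0.558%) and 54 were lower (1.37%), and 5 moved in opposite directions. The AAI differences of a gene in the 2 pairs lay apart by a median of 0.18 to 0.26 in every range of mean level, and the 95th percentile of this gap was 0.615 to 0.812, above the threshold of 0.5.

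Genes that p53 is known to activate were among the 22 higher genes. Of 34 such targets in the table, 8 passed the filter, and 4 were higher with AAI in both pairs and none lower. Those 4 were under 0.5 in both mice without AAI and passed the filter only through the mice in which they were high, so their count among the members that passed is a description. At any size, 20 of the 34 were higher and 2 were lower in both pairs, and the level summed over the list was 6.74, 11.38, 6.07 and 13.6. The share of all genes at any size is not given here. Over the 3944 genes tested, the median difference was 0.004 in control and 0.04 in hKLF6 OE. *Ccng1*, which encodes cyclin G1, stood at 0.190, 1.39, 0.386 and 1.09. *Btg2*, an antiproliferative gene, stood at 0.0950, 0.865, 0.112 and 0.711. In both, each mouse with AAI exceeded each mouse without, and the differences were 1.00 and 0.59 for *Ccng1* and 0.77 and 0.62 for *Btg2*. *Polk*, a polymerase that copies past bulky DNA adducts, was 0.166, 0.824, 0.344 and 1.04, and *Trp53inp1* was 0.288, 0.927, 0.0971 and 1.12. *Cdkn1a*, for the cell cycle inhibitor p21, did not reach the filter in LH-AL-2 but had the same order, with 0, 0.456, 0.0262 and 0.344, and *Mdm2*, the ligase that degrades p53, was 1.11, 1.29, 0.596 and 2.03, a difference of only 0.12 in the control pair. The same 4 targets were counted higher in other clusters as well, *Trp53inp1* in 17, *Ccng1* in 15, *Btg2* in 11 and *Polk* in 8 of 22.

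The sequences before the starts of *Ccng1*, *Polk* and *Btg2*, which moved together, are shown with that of *Cdkn1a*, the best known p53 target, as the 250 bases upstream of a RefSeq start in GRCm38.p6. Capitals mark the p53 decamer, a motif of 10 bases, of which p53 binds pairs, searched on both strands. They lie at chr11:40755287-40755536 (minus strand), chr13:96519188-96519437 (minus strand), chr1:134079156-134079405 (minus strand) and chr17:29090729-29090978 (plus strand).
Ccng1: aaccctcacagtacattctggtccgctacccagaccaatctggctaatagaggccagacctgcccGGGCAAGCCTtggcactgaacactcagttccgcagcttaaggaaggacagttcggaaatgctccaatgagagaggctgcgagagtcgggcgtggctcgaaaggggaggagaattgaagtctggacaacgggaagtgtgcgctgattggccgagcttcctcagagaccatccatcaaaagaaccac
Polk: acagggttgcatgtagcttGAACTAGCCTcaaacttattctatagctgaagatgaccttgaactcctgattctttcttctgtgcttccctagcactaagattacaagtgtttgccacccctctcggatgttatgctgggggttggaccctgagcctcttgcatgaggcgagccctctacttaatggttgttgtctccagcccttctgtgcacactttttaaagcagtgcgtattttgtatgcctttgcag
Btg2: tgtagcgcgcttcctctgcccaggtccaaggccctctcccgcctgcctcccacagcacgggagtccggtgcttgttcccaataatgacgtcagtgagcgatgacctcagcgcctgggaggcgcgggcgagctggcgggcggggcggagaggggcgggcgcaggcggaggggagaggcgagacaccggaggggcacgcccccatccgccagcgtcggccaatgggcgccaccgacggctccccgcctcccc
Cdkn1a: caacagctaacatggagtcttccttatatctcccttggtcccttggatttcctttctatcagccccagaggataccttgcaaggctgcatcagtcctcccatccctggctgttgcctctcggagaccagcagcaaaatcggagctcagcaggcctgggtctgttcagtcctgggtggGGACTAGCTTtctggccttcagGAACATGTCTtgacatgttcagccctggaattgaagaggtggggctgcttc
The windows of *Ccng1* and *Polk* each held 1 decamer and that of *Btg2* none. The window of *Cdkn1a* held 2 decamers with a gap of at most 13 bases, counted here as a pair. The 10 bases that directly follow the second, tgacatgttc, were not marked as a decamer. Which of these bases p53 binds was not tested. A decamer was found in 7.13% of 32851 promoters and such a pair in 0.0639%. *Polk* and *Cdkn1a* each have a further start in RefSeq, and neither of those windows held a decamer, so the window shown for each is the one with a match. No window was available for *Trp53inp1*. These matches describe the letters only.

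Of 4 immediate early genes that passed the filter, 1 was counted higher in both pairs. This was *Egr1*, a factor induced by growth and stress signals, which stood at 0.156, 1.15, 0.360 and 1.65 and was higher in 18 other clusters too. *Junb* stood at 0.138, 0.531, 0.0537 and 0.790, so that both mice with AAI lay above both without, but its difference in the control pair was 0.43. Among genes of no such list, *Stat3* was 1.89, 3.86, 1.83 and 3.69, and it was higher in 7 other clusters. *Bhlhe40*, a repressor of the circadian clock, was 0.865, 1.73, 0.578 and 1.65. *Chd9*, a chromatin remodeler, was 2.10, 8.15, 2.81 and 5.38 and was higher in 20 of the other 22 clusters, by 2.44 and 1.23 in LH-AL-1.

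Other genes were higher in few clusters besides LH-AL-2. *Cldn16* was higher with AAI by 0.52 and 1.04, and was counted higher in no other cluster. In LH-AL-1, where its level was low, the differences were 0.11 and 0.51. In LH-AL-3, where it was low too, it stood at 0.425, 0.597, 0 and 0.567. The direction with AAI was thus the same in all 3 ascending limb clusters, and a low level limits the difference that can be reached. *Greb1*, a cofactor of estrogen signaling, was 1.05, 2.67, 0.791 and 2.90, with differences of 0.84 and 1.12, whereas LH-AL-1 had at most 0.156 in any mouse. *Ppp1r1a*, which encodes protein phosphatase inhibitor-1, was 1.23, 6.31, 1.33 and 2.90. Its difference in the control pair, 1.71, was the largest of the 22 higher genes, and LH-AL-1 had 1.52 and 0.31. The sialyltransferase *St3gal4* (2.19, 3.94, 3.02 and 6.33), the mitochondrial carrier *Slc25a30* (4.54, 6.85, 4.05 and 7.11), *Plcxd3* (2.10, 4.13, 1.21 and 2.78) and *Nbea* (5.10, 7.99, 5.11 and 7.79) were higher in LH-AL-2 and in 2, 1, 1 and 0 other clusters. *Slc8a1*, the sodium-calcium exchanger, was 1.89, 4.33, 1.09 and 4.302, but it is a marker of the connecting tubule, where it stood at 223 to 412. Of the other 3 connecting tubule markers, *Calb1* was 0.604, 0.591, 1.04 and 1.07. *Scnn1b* and *Scnn1g* were at most 0.235, under the filter and too low to show a change. *Greb1*, too, was highest in the connecting tubule in the uninjured control mouse. The part of connecting tubule RNA in the values of *Slc8a1* and *Greb1* was not tested. In LH-AL-1 *Slc8a1* was 4.64, 1.24, 1.15 and 4.14, lower with AAI in control and higher in hKLF6 OE.

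Of the 22 higher genes, 4 were counted in no other cluster and 6 in at least 11. In LH-AL-1, 18 genes were higher with AAI in both pairs and 8 were shared, which is 36.4% of the genes of LH-AL-2 and 44.4% of those of LH-AL-1. At any size, 19 of the 22 had the same sign in LH-AL-1 in both pairs, a count with no share over all genes beside it. The clusters share mice and libraries.

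**Figure D3:**
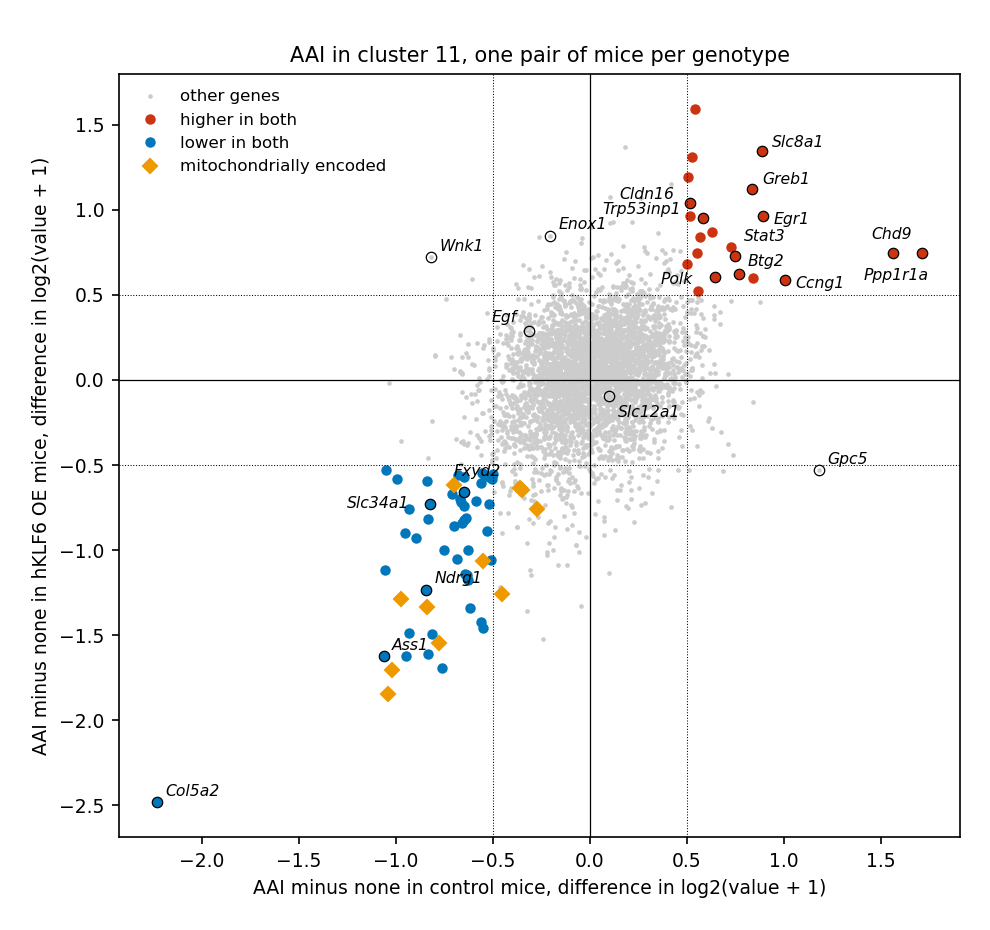
AAI minus no AAI in cluster 11, as the difference in log2(value + 1), in control mice (horizontal) and hKLF6 OE mice (vertical) for 3944 genes. Dotted lines mark 0.5; the 22 genes higher in both are red, the lower genes are blue, and the 11 mitochondrially encoded genes that passed the filter are orange diamonds, all below 0 in both pairs. *Col5a2* lies furthest down and left, and *Slc12a1* near the centre.

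Among the 54 lower genes, *Col5a2* had the largest differences. It encodes the alpha 2 chain of type V collagen and lies on chromosome 1 at 45374321 to 45503282. In LH-AL-2 it stood at 13.01, 1.99, 4.62 and 0.00660, a difference of -2.23 in control and -2.48 in hKLF6 OE. The 4 mice each had a different level, from the highest of all clusters in 3 mice to next to none in the hKLF6 OE mouse with AAI. In LH-AL-1 the levels were 2.32, 0.405, 0.370 and 0, and in LH-AL-3 they were 4.77, 0, 1.34 and 0, with the control mouse highest in all 3 clusters.

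Mitochondrially encoded genes were lower. Of 11 that passed the filter, 7 were counted in both pairs: *mt-Nd2*, *mt-Nd4*, *mt-Co1*, *mt-Co2*, *mt-Co3*, *mt-Atp6* and *mt-Cytb*. *mt-Co3*, a subunit of cytochrome c oxidase, stood at 64.2, 37.0, 90.5 and 30.4, and *mt-Atp6*, a subunit of ATP synthase, at 34.1, 16.1, 50.4 and 13.3. The list had a median of -0.70 in control and -1.26 in hKLF6 OE. Together these genes took 2.22%, 1.24%, 3.02% and 1.20% of the counts of LH-AL-2. This share was lower with AAI in 14 of the 15 other clusters outside the proximal tubule in control mice and in 15 of 15 in hKLF6 OE mice, so that the shift was not particular to LH-AL-2. Nuclear genes of oxidative phosphorylation, of which 55 and 60 passed in the pairs, had medians of -0.08 and -0.34, and of 53 that passed in both pairs only *Atp5k* was counted. In the hKLF6 OE pair alone, 19 of the 60 were lower and none higher, against 2 lower and 1 higher of the 55 in control. Cytosolic ribosomal proteins were split in the same way, with 14 of 44 lower and none higher in hKLF6 OE (median -0.34) and 1 of 29 higher and none lower in control (median 0.04). The share of all genes lower in the hKLF6 OE pair was 5.85%, and the difference between the genotypes was not tested.

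Genes of the proximal tubule were among the rest. *Slc34a1*, its sodium-phosphate cotransporter, stood at 10.1, 5.30, 9.97 and 5.62. *Kap*, the kidney androgen-regulated protein, stood at 77.6, 50.1, 105 and 40.7. *Ass1*, argininosuccinate synthase, was 2.57, 0.708, 3.57 and 0.486, and *Slc27a2*, a fatty acid transporter, was 5.16, 2.18, 5.67 and 2.58. Each was lower in both mice with AAI than in either mouse without, yet each was lower in LH-AL-2 than in the mean of the other clusters. In the uninjured control mouse, 42 of the 54 lower genes (77.8%) were highest in a proximal tubule cluster, against 25.99% of the 3944 genes tested and 4 of the 22 higher genes. Of these 42, 33 were highest in the clusters InjuredPT-A or InjuredPT-B, which the study names as injured, and the number of nuclei behind those columns in an uninjured mouse is unknown. With these clusters left out, 22 of the 54 (40.7%) were highest in a proximal tubule cluster, against 14.5% of the genes tested and 0 of the 22 higher genes. Without the mitochondrially encoded genes the counts were 35 of 47 (74.5%) and 22 of 47 (46.8%).

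The summed proximal tubule markers in LH-AL-2, 102, 66.1, 128 and 56.9, came to 50.9%, 34.9%, 63.4% and 34.1% of their mean sum in the 5 proximal tubule clusters not named as injured in the same mouse. In LH-AL-2, *Kap* alone held most of each sum. The summed markers were lower with AAI in 15 of 15 other clusters outside the proximal tubule in both genotypes. Of the 10 markers, 7 were lower and 1 was higher with AAI in both pairs at any size. No share of all genes at any size is given beside this. Only 3, *Kap*, *Slc22a6* and *Slc34a1*, were counted lower in both pairs. The list had a median of -0.42 and -0.39, against 0.004 and 0.04 over all genes tested. The part of proximal tubule RNA outside its own nuclei in these lower values was not tested. The 54 genes were also short, with a median span of 13.01 kb against 56.7 kb for all genes tested, and 68.5% of them spanned under 30 kb against 28.2%. For the 47 that are not mitochondrially encoded, the median was 17.4 kb and 63.8% spanned under 30 kb.

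**Figure D4:**
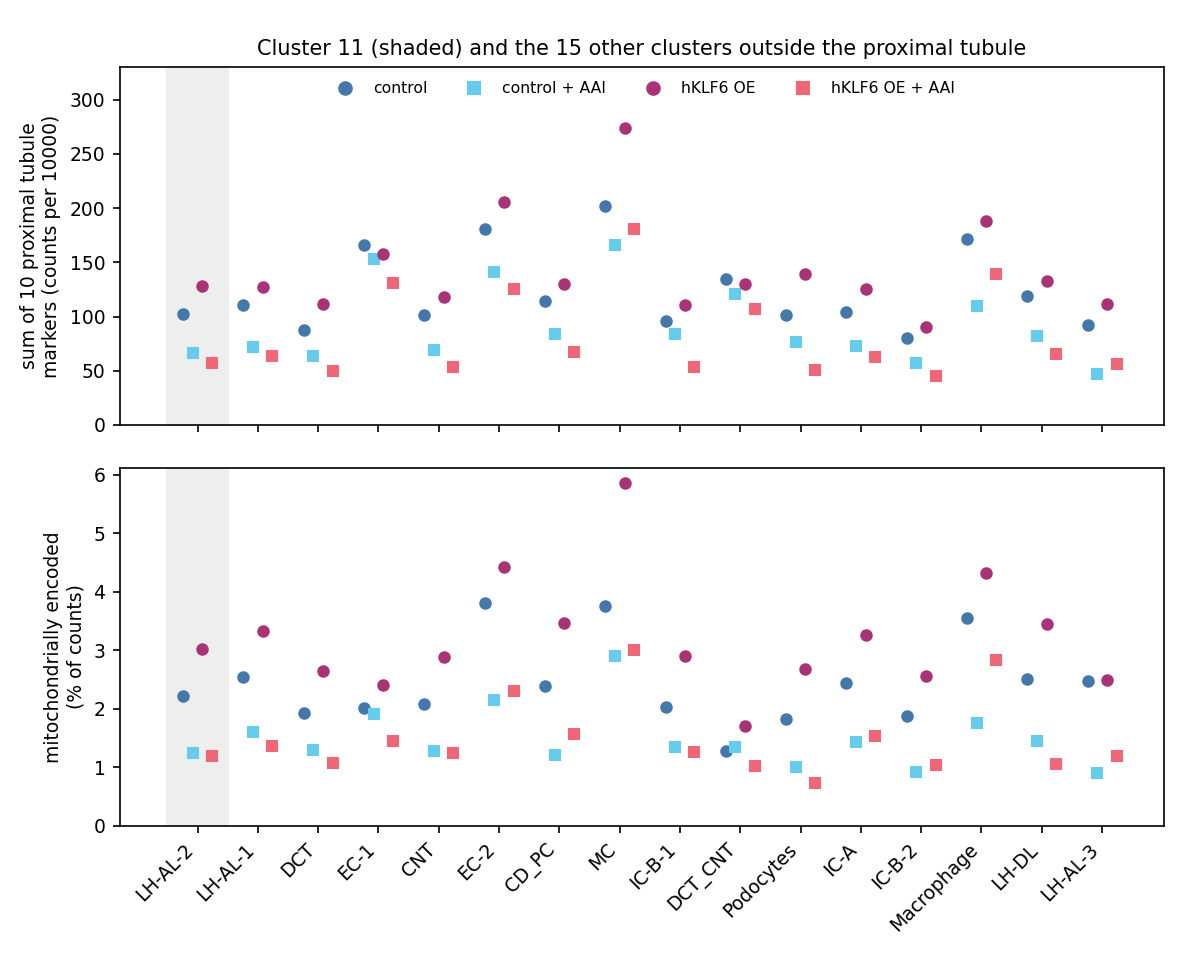
Summed level of 10 proximal tubule markers (upper panel, counts per 10000) and share of counts from mitochondrially encoded genes (lower panel, %) in cluster 11, shaded, and in the 15 other clusters outside the proximal tubule. In cluster 11, *Kap* alone held most of the sum. Each point is 1 mouse; in cluster 11 both measures were lower in the mice with AAI, at 56.9 and 66.1 against 102 and 128, and at 1.20% and 1.24% against 2.22% and 3.02%, and the same order was seen in most clusters.

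Other lower genes are known for other roles, although in the uninjured control mouse *Ndrg1* and *Fhit* were highest in the proximal tubule cluster PT-S1-S2-1 and *Macrod2*, *Ubb* and *Hspa8* in an injured one. *Ndrg1*, a stress-responsive gene, was 4.99, 2.34, 6.09 and 2.02 and was lower in all 22 other clusters. *Fxyd2*, the Na,K-ATPase regulator, was 18.04, 11.13, 16.3 and 9.95, with differences of -0.65 and -0.66, and it was the only 1 of 12 salt transport genes to be counted in both pairs. It was lower in 8 other clusters. *Rora*, a nuclear receptor of the circadian clock, was 8.64, 5.41, 5.65 and 3.06. The ubiquitin gene *Ubb* (1.34, 0.333, 2.63 and 0.293) and the chaperone *Hspa8* (2.89, 1.73, 5.77 and 2.26) were lower too. The very long genes *Fhit* (19.9, 9.92, 16.7 and 9.44) and *Macrod2* (4.80, 2.11, 4.45 and 1.86) were lower in 12 and 7 other clusters. The kinase *Jak2* (0.765, 0.246, 0.808 and 0.231), *Cadm2* (3.91, 1.75, 3.09 and 1.71), *Tbxas1* (2.41, 1.31, 1.63 and 0.798), *Fndc9* (2.37, 1.07, 2.11 and 0.711) and *Slc2a13* (5.32, 3.09, 5.86 and 2.04) were counted lower in no other cluster. Of the 54 genes, 32 were also lower in LH-AL-1, which is 59.3% of the genes of LH-AL-2 and 76.2% of the 42 lower genes of LH-AL-1. At any size, 52 had the same sign there, again with no share over all genes beside it.

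Of the genes that define the segment, *Cldn16* and *Fxyd2* alone were counted with AAI in both pairs, among the marker and salt transport lists. *Slc12a1* differed by 0.10 and -0.09, *Umod* by 0.07 and 0.08, *Kcnj1* by -0.05 and -0.14 and *Casr* by 0.03 and 0.37. *Egf* differed by -0.31 in control and 0.29 in hKLF6 OE. The median of the salt transport genes was -0.09 and -0.08. Of 11 genes that regulate salt transport and 13 transcription factors, none was counted in both pairs, and of 8 claudins and tight junction genes only *Cldn16* was. No member was counted in both pairs among 5 genes of tubular injury, 13 of the unfolded protein response, 8 NRF2 targets, 15 of fatty acid oxidation, 12 of glycolysis, 29 cytosolic ribosomal proteins, 5 of the glucocorticoid response, 6 of calcium and magnesium handling, 4 of the EGF family and 5 Krüppel-like factors. With 0.558% of all genes higher and 1.37% lower in both pairs, such short lists would hold few counted genes or none in any case. *Klf6* itself, the mouse gene, stood at 0.244, 0.537, 0.105 and 0.453, higher by 0.31 and 0.39 with AAI. *Havcr1*, for kidney injury molecule 1, was at most 0.0253. The osteopontin gene *Spp1* was 3.46, 5.51, 5.41 and 6.80.

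The AAI difference of LH-AL-2 was also set against that of LH-AL-1 in the same mice. Of 4322 genes, 4 moved further up (0.0925%) and 3 further down (0.0694%) by at least 0.5 in both genotypes, and 9 departed in opposite directions. After centring on the median it was 5 and 2. *Greb1* was higher in LH-AL-2 alone of the 2 clusters. *Tgs1*, *Ttc39b* and *Tenm2* did not reach 0.5 upward in LH-AL-2 itself. *Tgs1* differed by 0.38 and 0.46 against -0.19 and -0.15 in LH-AL-1, and *Tenm2* was lower in both clusters, by -0.24 and -1.52 against -1.09 and -2.52. Of the 3 further down, *Col5a2* was also lower in LH-AL-1, whereas *Fbxl7* and *Skap1* were lower in LH-AL-2 and higher in LH-AL-1, by 0.26 and 0.34 for *Fbxl7* and 0.26 and 0.24 for *Skap1*.

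hKLF6 OE was compared with control without and with AAI. Without AAI, 125 of 4447 genes were higher in hKLF6 OE (2.81%) and 117 were lower (2.63%), and after centring on the median it was 166 and 91. With AAI, 38 of 4204 were higher (0.904%) and 62 were lower (1.47%). In both, 1 of 3784 genes was higher (0.0264%) and 9 were lower (0.238%), and *Abcc2* moved in opposite directions. The AAI and genotype comparisons share mice, so that the uninjured hKLF6 OE mouse enters both the AAI difference of its genotype and the genotype difference without AAI.

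*Nrxn3* and *Col5a2* had the largest differences among the lower genes. The *Nrxn3* levels of 16.1 and 11.05 in the control mice stood against 6.53 and 5.05 in the hKLF6 OE mice, differences of -1.19 without and -0.99 with AAI. Both hKLF6 OE mice lay below both control mice. In LH-AL-3 the values were 8.72, 15.99, 3.50 and 1.06, with the same split by genotype. In LH-AL-1 they were 0.629, 0.122, 0.147 and 1.06, without this split. *Col5a2* was lower by genotype too, by -1.32 and -1.57. *Itgb6*, a subunit of the integrin that activates TGF-beta, was 9.04, 6.73, 4.92 and 4.44, and in LH-AL-1 it was 4.48, 4.17, 3.02 and 2.79. In LH-AL-3 it went the other way, at 0.898, 0.731, 3.60 and 1.69, with both hKLF6 OE mice above both control mice. *Itgb6* was highest of all clusters in LH-AL-2 in 3 of 4 mice. *Trabd2b*, a metalloprotease that acts on Wnt proteins, was 5.64, 8.03, 2.37 and 4.01 and was lower in 8 other clusters. *Sema3c*, a secreted semaphorin, was 1.58, 2.72, 0.555 and 1.15, and *Nhsl2* was 4.61, 3.96, 2.82 and 2.31. *Rora* was lower by -0.54 and -0.66. *Slc12a3*, the thiazide-sensitive cotransporter and a marker of the distal convoluted tubule, was 3.61, 2.54, 1.89 and 1.35. *Slc12a3* made up most of the sum of the 3 markers of that tubule, which was 4.16, 2.82, 2.16 and 1.48. Of the 3, it alone passed the filter. The part of distal convoluted tubule RNA in its genotype difference was not tested. The predicted gene *Gm6994* was the ninth. Of the 9, 5 were counted in no other cluster.

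The only gene higher in hKLF6 OE in both was *Pck1*, which encodes the gluconeogenic enzyme phosphoenolpyruvate carboxykinase. It stood at 2.10, 0.742, 4.29 and 2.00 and was higher in 17 other clusters. It is a gene of the proximal tubule, whose summed markers in LH-AL-2 were higher in hKLF6 OE without AAI (128 against 102) and lower with AAI (56.9 against 66.1). *Kap* alone held most of each sum. Over the 10 markers the median genotype difference without AAI was -0.06, with none counted higher and *Lrp2* counted lower. *Pck1* was also lower with AAI in both genotypes, by -0.83 and -0.81, as were the summed markers, and the part of proximal tubule RNA in its values was not tested.

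**Figure D5:**
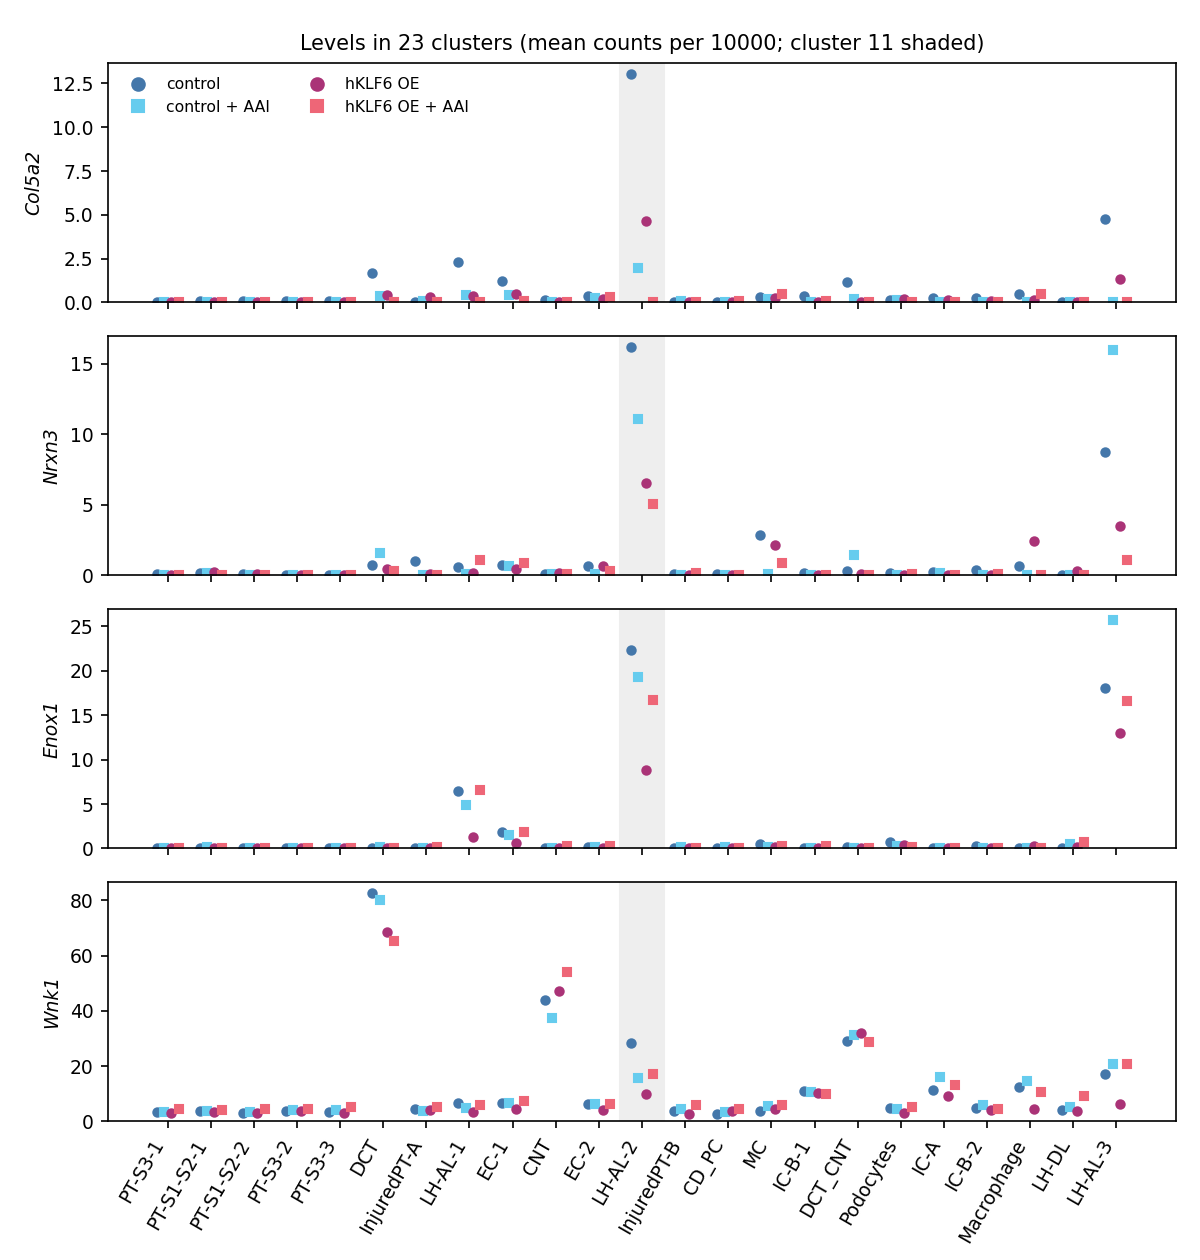
Levels of *Col5a2*, *Nrxn3*, *Enox1* and *Wnk1* (mean counts per 10000, linear axes from 0) in the 23 clusters, with 1 point per mouse and cluster 11 shaded. *Col5a2* and *Nrxn3* were highest in the control mouse of cluster 11 (13.01 and 16.1), *Enox1* was high in clusters 11 and 22, and *Wnk1* was highest in the distal convoluted tubule.

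Several larger differences were seen without AAI alone. *Enox1* was lower in hKLF6 OE by -1.24 without AAI and by -0.19 with it, and *Wnk1* by -1.43 without AAI, against 0.11 with it. *Egf* differed by -0.65 and -0.05. In LH-AL-1 the same uninjured hKLF6 OE mouse was also the lowest of the 4 for *Enox1* (1.23), *Egf* (60.4), *Casr* (1.66) and *Wnk1* (3.34). Of the 191 genes that marked LH-AL-2, 82 (42.9%) were lowest in this mouse, against 1323 (33.3%) of the 3972 genes tested. Lists of genes that every cell uses were higher in the same mouse. Without AAI, 14 of 61 nuclear genes of oxidative phosphorylation were higher in hKLF6 OE and none lower, with a median of 0.30, as were 9 of 44 cytosolic ribosomal proteins (median 0.32) and 4 of 11 mitochondrially encoded genes (median 0.48). The median over all genes tested was -0.04. With AAI, none of these genes was counted and the medians were 0.01, -0.13 and -0.06. The share of mitochondrial counts, 3.02% in this mouse, was the highest of the 4, and its part in these differences was not tested.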

How the data were processed

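The deposited table was made by the authors from Cell Ranger counts on a mouse pre-mRNA reference of mm10, per the labels and methods, with nuclei clustered in Seurat. All libraries formed a single technical batch. The signal values are the authors' means of normalized counts over the nuclei of 1 cluster in 1 mouse. The unit was read from the deposited values, which sum to 10000 in each of 92 columns before any logarithm. Pre-mRNA counting includes introns, which raises long genes. No step against doublets is described for the RNA libraries. The table holds neither depth nor nuclei per column. Of 19632 rows, 23 with date-like names were left out.

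Differences used a pseudocount of 1, a minimum of 0.5 and a threshold of 0.5. LH-AL-2 was compared with the unweighted mean of the 22 other clusters and with cluster 7, AAI within genotype and genotype within AAI state. There were 32 gene lists, described by counts and medians. The members and lists were chosen with earlier results of these data known. Genes named are the 12 furthest above the other clusters, the 10 highest and 10 lowest against cluster 7, the 12 largest rises and falls with AAI, the 8 with genotype, the 5 with unequal AAI change, and list members; others were named after their values were seen. A few genes that these rules name are not reported here. The counting was tested on simulated data. Gene spans and positions came from GENCODE on GRCm38, promoters from RefSeq. Alternatives were pseudocount 0.1, no minimum, minimum 2, thresholds 0.2 and 1, median centring, other references and each mouse left out. Python 3.11.15, numpy 2.4.6, pandas 2.3.3 and matplotlib 3.10.9 were used.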

Additional observations from a re-analysis of the deposited data

Results flagged for a closer look

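In 5 genes, AAI was followed by a difference of at least 0.5 in 1 direction in the control pair and in the opposite direction in the hKLF6 OE pair of LH-AL-2. Each genotype has 1 mouse with and 1 without AAI, and the difference between the genotypes was not tested. *Wnk1* differed by -0.82 in control and 0.72 in hKLF6 OE, and LH-AL-1 moved the same ways, by -0.35 and 0.65. *Gpc5*, a glypican, differed by 1.18 and -0.53, with 2.30, 6.49, 2.24 and 1.25 in the 4 mice. *Zfpm2* differed by 0.69 and -0.54, *Sgms2* by -0.61 and 0.59 and *Actb* by 0.51 and -0.53.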

How the results depend on the processing

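The counts of genes in either direction, as reported, were 540 (other clusters), 59 (LH-AL-1), 246 (AAI in control), 416 (AAI in hKLF6 OE), 76 (AAI in both genotypes), 242 (genotype without AAI), 100 (genotype with AAI), 10 (genotype in both AAI states) and 7 (AAI beside LH-AL-1). With a pseudocount of 0.1 they were 901 (other clusters), 107 (LH-AL-1), 1365 (AAI in control), 1612 (AAI in hKLF6 OE), 366 (AAI in both genotypes), 1355 (genotype without AAI), 914 (genotype with AAI), 111 (genotype in both AAI states) and 196 (AAI beside LH-AL-1). With a minimum of 2, 262 (other clusters), 38 (LH-AL-1), 131 (AAI in control), 198 (AAI in hKLF6 OE), 113 (genotype without AAI), 49 (genotype with AAI) and 3 (AAI beside LH-AL-1). With a threshold of 0.2, 1146 (other clusters), 184 (LH-AL-1), 1939 (AAI in control), 2208 (AAI in hKLF6 OE), 653 (AAI in both genotypes), 1950 (genotype without AAI), 1455 (genotype with AAI), 241 (genotype in both AAI states) and 372 (AAI beside LH-AL-1). With a threshold of 1, 147 (other clusters), 17 (LH-AL-1), 11 (AAI in control), 51 (AAI in hKLF6 OE), 5 (AAI in both genotypes), 12 (genotype without AAI), 3 (genotype with AAI), 1 (genotype in both AAI states) and 0 (AAI beside LH-AL-1). Against the highest of the other clusters, 3167 of 7246 genes differed, of which 3 were higher and 3164 were lower. No minimum, and centring on the median, kept each count within 1.5 times. Without 1 mouse, the genes that differed from the other clusters numbered 569 to 627 and those that differed from LH-AL-1 67 to 73. Of the values of single genes and lists, 148 kept within the margin, 59 moved and 3 changed sign. With a minimum of 2, the median of nuclear oxidative phosphorylation went from -0.0796 to 0.0554 for AAI in control and from 0.0102 to -0.0687 for genotype with AAI, and that of salt transport from -0.038 to 0.0817 for genotype without AAI. With the injured proximal tubule clusters left out, an alternative chosen after seeing the data, the share of lower genes highest in a proximal tubule cluster fell from 77.8% to 40.7%, and from 74.5% to 46.8% without mitochondrially encoded genes. No paired analysis was possible because each condition has 1 mouse and the labels give no replicate numbers that tie the mice together. An additive fit of AAI and genotype over the 4 mice, which leaves 1 residual degree of freedom, was not run.

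The counts over AAI and genotype rest on 1 mouse per condition and change several-fold with the pseudocount and the threshold. The number of nuclei behind a column is unknown, so that a value such as 0.00660 for *Col5a2* has no interval. Differences between mice cannot be told apart from those between conditions.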

Other observations

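Of 27 genes of tubular injury, 7 passed the filter against the other 22 clusters, where 2 were higher in LH-AL-2 and 1 was lower, beside 4.81% higher and 8.79% lower over all genes tested. *Bmp6* was the lower one, at 0.167 to 0.291 against 1.67 to 1.82, and *Krt20* and *Ccl2* were listed at 0 in all 4 mice. *Itgb6* and *Prom1*, which marks immature tubule cells, were higher than in the mean of the other 22 clusters in every mouse, with *Prom1* at 2.77, 3.11, 2.13 and 2.19 against at most 0.923. *Spp1* was present in all 4 mice, and *Lcn2*, which encodes the injury marker NGAL, was at most 0.0419. Of the glycolysis genes only the hexokinase *Hk1* was higher than in the other clusters, at 3.17 to 4.14. *Trpm6*, the magnesium channel of the distal convoluted tubule, was 0.129 to 0.397 in LH-AL-2, and its relative *Trpm7* was 1.84 to 2.76 against 4.08 to 5.46 in the mean of the others. Among the genes of the tight junction, *Ocln*, for occludin, was 1.45, 2.48, 1.66 and 2.18, with AAI differences of 0.51 and 0.25.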
